A study of Mus musculus with 3 samples.

Results

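Immature neutrophils with secondary granule transcripts were taken from the peripheral blood (PB) libraries by a gate on transcripts alone. Cells were chosen by the measured UMIs (unique molecular identifiers, 1 per captured transcript) of 5 genes. A barcode (the tag of 1 droplet) entered when it passed 200 detected genes or more, when mitochondrial transcripts took no more than 10% of its UMIs, when S100a8 and S100a9 together made up at least 2% of its UMIs, and when Camp, Ngp and Ltf together made up at least 1%. The gate held 323 of the 12792 barcodes kept, of which 13 were naive, 107 were from D11 and 203 from D14. The 3578 barcodes that met the S100a8 and S100a9 limit but not the 1% limit, 1214, 1502 and 862 in the same order, are called below-limit neutrophils and serve as the comparison. Since those levels chose the cells, everything that sets the gate against the below-limit cells is a description.

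The blood came from wild-type Balb/C mice, either naive or transplanted with BBC2 cells, a line of stem cell leukemia/lymphoma (SCLL) driven by FGFR1. Leukemic mice were bled at day 11 (D11, intermediate stage) and day 14 (D14, late stage), and the engrafted animals were females aged 6 to 8 weeks by the methods of the study. Red cells were lysed and dead cells removed before 10x Genomics 3′ v3 libraries were made, so that cells lost in these steps are not seen. Each condition is 1 library, the number of mice behind it is not given in the sources used here, and stage and library cannot be told apart. No difference was therefore tested. Brackets hold exact 95% intervals for counting error only (Clopper-Pearson for shares, Poisson for levels, conditional binomial for ratios). The deposited matrices held 5386, 8536 and 9337 barcodes with 30362408, 57640396 and 65861863 UMIs for naive, D11 and D14.

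Neutrophils make their granules in a fixed order as they mature in the marrow. Azurophil (primary) granule enzymes such as myeloperoxidase and elastase are transcribed first, in promyelocytes, and the genes of secondary, or specific, granules follow in myelocytes and metamyelocytes under the transcription factor C/EBP epsilon, encoded by Cebpe. These transcripts are lost as the nucleus segments, whereas the proteins stay in the granules, so that a blood neutrophil which still holds Camp, Ngp or Ltf mRNA is younger than a segmented cell. Camp encodes the precursor of the antimicrobial peptide cathelicidin, Ngp a cystatin-like granule protein, and Ltf lactoferrin, which binds iron.

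The label was checked against its 5 markers, of which Ly6g and Chil3 were not used by the gate. B cell barcodes, given beside them, were those with at least 5 UMIs of Cd79a, Cd79b and Ms4a1 together. They were not split into host B cells and cells of the leukemia, which the paper describes as pro-B-cell-like. Ly6g, the surface antigen of mouse neutrophils, had a UMI in 76.9% of the naive, 76.0% of the D11 and 61.1% of the D14 cells of the gate after each cell was thinned to 1000 UMIs, beside 2.16%, 12.1% and 18.9% of below-limit neutrophils and 0%, 0% and 0.137% of B cell barcodes. Chil3, which encodes a chitinase-like protein of young myeloid cells, had one in 30.8%, 29.8% and 57.1%, beside 0.332%, 0.469% and 9.76% of below-limit neutrophils and 0 of 355, 0 of 318 and 0 of 732 B cell barcodes. Unthinned, Ly6g was in 92.3%, 94.4% and 95.6% of gated cells and in 9.56%, 26.4% and 45.4% of below-limit cells. Chil3 was in 69.2%, 56.1% and 90.1% of the former and in 1.07%, 1.46% and 23.4% of the latter, and D14 B cell barcodes, which were deeper, had the genes in 1.64% and 3.14%. Primary granule transcripts, which would mark still earlier stages, were close to nil: Elane and Mpo had no UMI in any of the 323 cells, and the 8 genes of that list summed to 92.8, 22.3 and 30.7 CPM, the unit used throughout, which is the count of a gene scaled to a common total of summed UMIs. Below the limit the same list summed to 25.7, 45.7 and 233 CPM. Of the D14 value, Elane made up 53.6 CPM and Mpo 22.0 CPM, with 96.9% and 94.3% of their UMIs in 1 cell, and Prtn3 53.0 CPM with 71.0% in 1 cell. Transcripts of an earlier stage were thus in the D14 comparison cells, for each of these genes mostly in 1 cell. Both markers that the gate did not use were more frequent in it than in the below-limit and B cell barcodes. The transcripts of other cell types in the gate and in the below-limit cells are given at the end.

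The promoters of the 3 genes that defined the gate all lie on chromosome 9, and their sequence is shown as a description. Cebpe was among the genes with the greatest excess in the gate, and its action on these promoters was not tested. Camp (ENSMUSG00000038357) spans chromosome 9 from 109847379 to 109849617 on the minus strand of GRCm38, Ngp (ENSMUSG00000032484) runs from 110419747 to 110423012 and Ltf (ENSMUSG00000032496) from 111019271 to 111042767, both on the plus strand. The 250 bases before the RefSeq start of each gene were searched on both strands for the C/EBP-type word TTGCNNAA, whose reverse complement is TTNNGCAA. Shown 5′ to 3′ on the strand of the gene are the bases of these windows that lie before the annotated GENCODE gene, from RefSeq on GRCm38.p6, at chr9:109849618-109849706 for Camp, chr9:110419558-110419746 for Ngp and chr9:111019042-111019270 for Ltf. Capitals mark a match.
Camp: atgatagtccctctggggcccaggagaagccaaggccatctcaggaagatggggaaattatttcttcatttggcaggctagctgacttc
Ngp: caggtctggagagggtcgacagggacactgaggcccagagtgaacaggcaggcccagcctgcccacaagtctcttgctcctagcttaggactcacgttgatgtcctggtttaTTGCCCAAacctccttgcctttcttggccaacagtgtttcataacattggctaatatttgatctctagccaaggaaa
Ltf: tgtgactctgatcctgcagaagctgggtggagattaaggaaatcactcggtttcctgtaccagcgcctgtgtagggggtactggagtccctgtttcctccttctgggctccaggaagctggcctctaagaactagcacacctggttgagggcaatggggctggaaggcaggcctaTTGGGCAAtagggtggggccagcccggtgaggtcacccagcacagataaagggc
The match in Ngp begins 138 bases before its RefSeq start, a further one begins 11 bases before it inside the GENCODE gene, and the match in Ltf begins 75 bases before its start. Camp had none, which says only that these letters are not in that window. Of 32851 promoter windows of this length, 9.56% held the word, as did those of 5 of the 13 secondary granule genes with a window. A match is a description of sequence and does not show binding.

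The share of neutrophils that were immature was higher in each leukemic library than in the naive one. It was 1.06% [0.565 to 1.80] of 1227 naive neutrophils, 6.65% [5.48 to 7.98] of 1609 at D11 and 19.1% [16.7 to 21.6] of 1065 at D14. The D11 share was 6.28 times the naive one [3.52 to 12.2], and the D14 share was 2.87 times that at D11 [2.26 to 3.66], so the intervals of the 3 libraries do not overlap. Over all barcodes kept the shares were 0.341%, 2.34% and 4.60%, and the ratio of D14 to D11 was 1.96 [1.55 to 2.50]. The smaller ratio goes with the neutrophils themselves, which were 35.2% of the barcodes kept at D11 and 24.1% at D14. Barcodes were taken to hold other cells' transcripts with more than 1% hemoglobin UMIs, or with 3 or more UMIs of B cell, early B, T cell and NK markers together. Monocyte markers were not used for this. Without such barcodes the shares of neutrophils were 0.533%, 3.12% and 14.0% and the D14 to D11 ratio 4.50. This left 6, 39 and 103 cells, most of those lost through the single gene Cd3d. With Cd3d not counted, an alternative chosen after seeing the data, 13 of 1181, 93 of 1428 and 185 of 925 neutrophils were in the gate. A share says nothing of cell numbers per volume of blood.

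**Figure D1:**
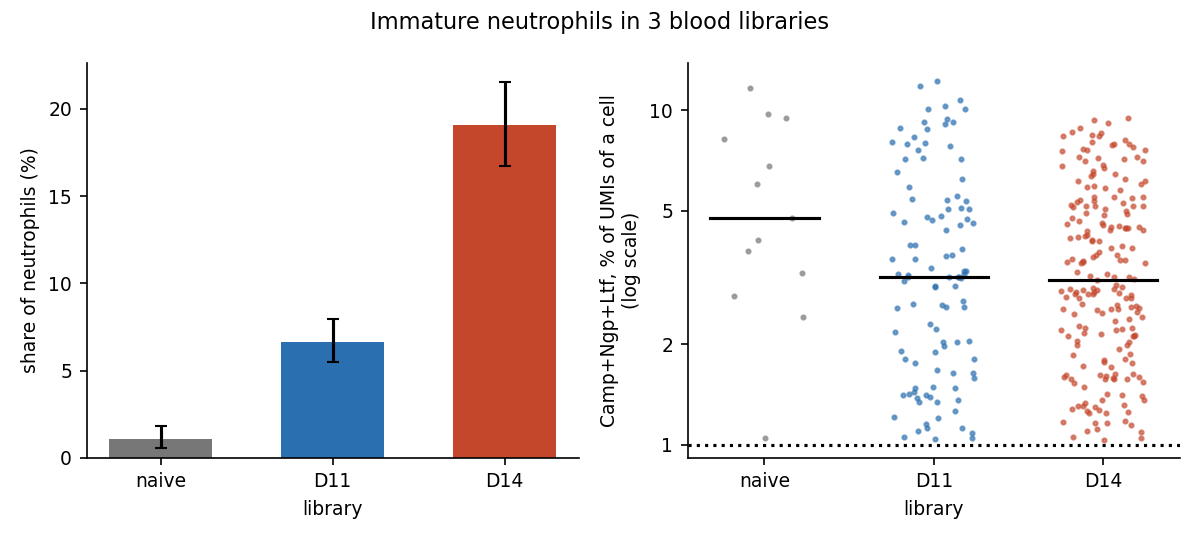
Left, bars give the share of neutrophils (%, axis from 0) that passed the gate in each library, with 95% Clopper-Pearson intervals, at 1.06%, 6.65% and 19.1%. Right, each point is 1 cell of the gate, placed by the share of its UMIs from Camp, Ngp and Ltf (log axis), with the median as a black line and the 1% limit dotted. The highest cell lies above 9% in each library, and the 13 naive cells are widely spaced.

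Within the gate the 3 genes together took a median of 4.75% of the UMIs of a naive cell, 3.18% at D11 and 3.11% at D14, with a highest cell of 11.6%, 12.2% and 9.46%. Ngp was the most abundant of the 3 in 10 of 13, 93 of 107 and 190 of 203 cells. Camp made up 43.7% of the 3 in the naive cells, 34.5% at D11 and 26.5% at D14, and Ngp 45.5%, 49.2% and 55.2%. The level of Camp was 30498 CPM, 15001 CPM and 10511 CPM in that order, while Ltf lay at 7565, 7095 and 7259 CPM. These are the values that admitted the cells, and in the naive library 1 cell held 37.9% of the Camp UMIs. Spearman correlations between the percentages of the 3 genes were taken across 107 cells of the gate at D11 and 203 at D14. They were 0.82 and 0.77 for Camp and Ngp, and 0.72 and 0.70 for Camp and Ltf. Ngp and Ltf had the lowest, 0.69 and 0.59. These values describe cells that share a library and were chosen for the sum.

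Cells close to the limit were few at D11 and more numerous at D14. Within 0.25 percentage points below the limit lay 0 naive, 6 D11 and 32 D14 cells, and within the same distance above it 1, 10 and 13. Lcn2, which encodes the secondary granule protein lipocalin-2, had 3706 CPM just outside and 4297 CPM just inside the limit at D11, and 5777 and 6733 CPM at D14. Retnlg, a resistin-like gene of blood neutrophils, had 11746 and 17414 CPM at D11 and 18854 and 19648 CPM at D14. No gap separated the sides at D11 and D14, and the limit cuts through a continuous range.

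Cells of the gate also gave more UMIs. Median UMIs per cell were 10732 naive, 8048 at D11 and 8788 at D14, against 3524, 3411 and 4488 in below-limit neutrophils. Median genes per cell were 2333, 2023 and 2181 in the gate and 1386.5, 1330.5 and 1523.5 below the limit. At equal depth the order was the other way: with each cell thinned to 1000 UMIs, the medians were 441, 505.5 and 515 genes in the gate and 600.0, 587 and 573 below the limit, with 3 cells of the D11 gate and 8, 11 and 22 below-limit cells too shallow to enter. S100a8 and S100a9 took a median of 30.3%, 22.8% and 22.5% of the UMIs of a gated cell. In the sums compared below, the gate has 985872 UMIs at D11 and 1825339 at D14, and the below-limit cells 6320645 and 4811024. The 13 naive cells sum to 150831 UMIs and are given as values only.

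Secondary granule genes that the gate did not use stood above their below-limit levels as a group. All 13 of the list besides Camp, Ngp and Ltf were higher in the gate at D11 and at D14, by a median log2 ratio of 2.13 and 1.40, and 12 and 9 of them were past 2-fold. Over all genes with at least 50 CPM on either side, 23.9% of 2980 at D11 and 16.2% of 2997 at D14 were past 2-fold, 8.05% higher and 15.8% lower at D11 and 4.54% higher and 11.6% lower at D14, and the median was -0.26 and -0.22. Of the same genes, past 2-fold or not, 64.7% were lower in the gate at D11 and 66.4% at D14, which is the share to set beside the counts of lower genes that follow. Both lists of cells were cut by transcripts of the same granules, and nothing is read from this contrast beyond its values.

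Lcn2 had 8446 CPM in the gate and 453 CPM below the limit in naive blood, 8917 and 1205 CPM at D11, and 9550 and 3150 CPM at D14. Its level within the gate was thus nearly flat across libraries, while the below-limit level was well above its D11 value at D14. Cd177, a surface receptor stored in these granules, had 875 and 109 CPM at D11 and 1100 and 348 CPM at D14. Mmp8, the neutrophil collagenase named in the title of the series, had 1366, 2454 and 3322 CPM in the gate for naive, D11 and D14, and 347, 618 and 2272 CPM below the limit. Its log2 ratio of gate to below-limit cells stood at 1.99 [1.91 to 2.06] for D11 but 0.55 [0.50 to 0.59] for D14. Chil3 went from 18.7 CPM below the limit to 590 CPM in the gate at D11, and from 344 to 1466 CPM at D14. Orm1, an acute phase glycoprotein also kept in secondary granules, was almost absent below the limit, at 0.949 and 5.40 CPM, and reached 101.4 and 122 CPM in the gate. It was the gene with the greatest excess by the naming rule, which ranks genes by the smaller of the D11 and D14 ratios. The least distinct member was Hp, haptoglobin, with a log2 ratio of 0.13 in both libraries.

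Other genes that led the gate included the transcription factor Cebpe, at 199 CPM against 16.3 CPM at D11 (log2 ratio 3.61 [3.26 to 3.97]) and 147 against 21.8 CPM at D14 (2.76 [2.42 to 3.09]). It was also at 345 CPM in the 13 naive cells. Serpinb1a, an inhibitor of neutrophil serine proteases, was at 474 CPM against 22.0 at D11 and 625 against 111 CPM at D14. Lta4h, the enzyme that makes leukotriene B4, was at 171 against 20.3 CPM and 188 against 30.6 CPM. Anxa3, an annexin of neutrophil granules, was found in 92.5% and 89.2% of gated cells, with log2 ratios of 3.65 and 2.41. Aoah, which deacylates endotoxin, had ratios of 3.27 and 2.46. The remaining 6 of the 12 named were Astn2, Zmpste24, F730016J06Rik, Trp53inp2, Pde4d and Golim4.

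Of the 13 granulocyte transcription factors, 8 had the minimum level, and Cebpe stood out among them. The others were lower in the gate or near even: Cebpb, a factor of mature and emergency granulopoiesis, had 388 against 1180 CPM at D11 and 412 against 1061 CPM at D14. Gfi1, a repressor needed early in the lineage, was at 3.04 and 1.64 CPM in the gate, and Myc had 0 and 1.10 CPM.

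The NADPH oxidase, which makes superoxide in phagocytes, was represented by 6 genes, and 5 were higher in the gate in both libraries, where 35.3% of all genes were higher at D11 and 33.6% at D14. Cybb, its membrane-bound catalytic subunit gp91phox, had 1557 against 179 CPM at D11 and 1593 against 364 CPM at D14. Ncf1 (p47phox) had 798 against 316 CPM and 837 against 338 CPM.

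Glycolysis genes were also higher, 10 of the 10 with the minimum level in both libraries, beside the same 35.3% and 33.6% of all genes, with medians of 0.93 and 0.52. Pgam1, a phosphoglycerate mutase, had 256 against 61.9 CPM at D11 and 231 against 109 CPM at D14, and Gapdh had 983 against 446 CPM and 898 against 584 CPM. Tertiary granule and secretory vesicle genes, made later in maturation, were mixed. Mmp9, the gelatinase of tertiary granules, had 1608 against 801 CPM and 1770 against 961 CPM, and Slc11a1, a metal transporter, had 79.1 against 170 CPM and 103 against 122 CPM. Of 8 genes, 6 were higher at D11 and 4 at D14, but with hemoglobin, ribosomal, mitochondrial and gate genes left out of the total they were 7 and 5.

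Genes of mature neutrophils were on the other side. Of 15, 14 were lower in the gate at D11 and 15 at D14, with medians of -1.69 and -1.29. Cxcr2, the chemokine receptor that draws neutrophils out of the marrow, had 579 against 1465 CPM at D11 and 676 against 1402 CPM at D14. Csf3r, the receptor for G-CSF, had 687 against 3028 CPM and 509 against 1805 CPM. The exception was Retnlg, at 12350 against 6103 CPM at D11 (1.02 [0.99 to 1.05]) and 12937 against 14677 CPM at D14 (-0.18 [-0.20 to -0.16]), where the sign turned to 0.02 with TMM factors.

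**Figure D2:**
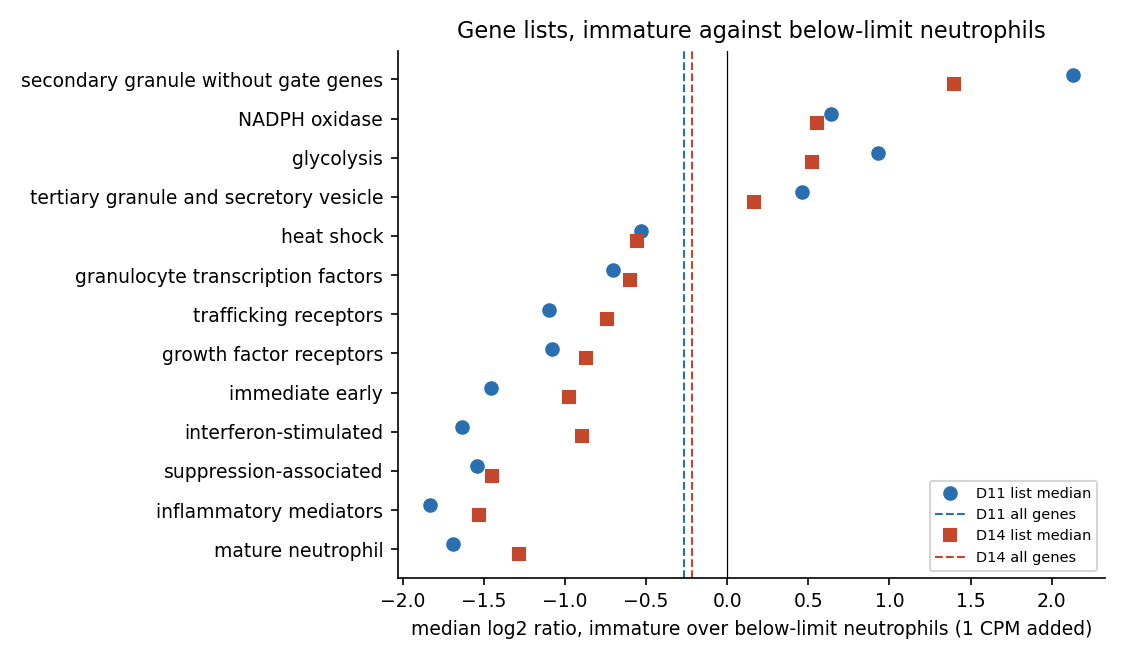
Median log2 ratio of immature over below-limit neutrophils for 13 gene lists, with 1 CPM added, as circles for D11 and squares for D14; dashed lines give the median of all genes compared, -0.26 and -0.22. Secondary granule genes without Camp, Ngp and Ltf lie farthest to the right, at 2.13 and 1.40, and inflammatory mediators farthest to the left, at -1.83 and -1.53.

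Inflammatory mediators with the minimum level were lower in the gate in 4 of 5 genes at D11 and 5 of 6 at D14, with medians of -1.83 and -1.53, beside 64.7% and 66.4% of all genes, and no more is read from these few genes than their values. Il1b, which encodes interleukin-1 beta, had 522 against 3724 CPM at D11 and 244 against 2150 CPM at D14, and its UMIs were found in 43.9% and 34.0% of gated cells. Nlrp3, the sensor of the inflammasome that processes it, had ratios of -1.84 and -2.15. Tnf did not follow, at 114 against 108 CPM at D11 and 150 against 61.3 CPM at D14. Of immediate early genes with the minimum level, 11 of 12 were lower at D11 and 10 of 11 at D14, and Jun was the one that was higher, with 0.31 and 0.40. Interferon-stimulated genes were lower in 7 of 8 and 5 of 6, with Ifitm3 higher at 0.55 and 0.53. Genes linked to suppression of T cells were lower in 8 of 9 and 7 of 8: Cd274 (PD-L1) had 16.2 against 57.8 CPM and 9.31 against 66.9 CPM. The greatest deficits by the naming rule were those of Steap4, Wfdc17, Fgl2, AU019990, Prr5l, Il1b, Jaml, Sycp2, Cass4, Tspan13, St3gal6 and Gm5150.

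Trafficking receptors were lower in 8 of 11 genes at D11 and in 10 of 12 at D14, beside the 64.7% and 66.4% of all genes, and nothing is read from these counts. Itga4, a chain of the integrin VLA-4, had 240 against 894 CPM and 239 against 677 CPM. Cxcr4, which retains young neutrophils in marrow, had 211 against 362 CPM at D11 and 155 against 177 CPM at D14, where the ratio was -0.19 [-0.39 to 0.00] and 0.01 with TMM factors. S1pr4, a sphingosine phosphate receptor, was the one past 2-fold higher, at 100 against 29.4 CPM and 95.3 against 44.1 CPM, and Itgb2, the common chain of the leukocyte integrins, had log2 ratios of 0.39 and 0.54. Of 5 growth factor receptors, 4 were lower in both libraries, with medians of -1.08 and -0.87, and Csf2ra, a chain of the GM-CSF receptor, was near even, at 0.22 and 0.03. Heat shock genes were lower in 4 of 5 and 6 of 7, not far from the share of all genes, and in 3 of 5 at D11 with hemoglobin, ribosomal, mitochondrial and gate genes left out of the total.

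These ratios depend on the total they are scaled to. Which genes of the total matter was not tested, since the alternative below leaves out several groups at once. Of the genes past 2-fold, 33.8% were higher in the gate at D11 and 28.0% at D14. With hemoglobin, ribosomal, mitochondrial and gate genes left out of the total these became 52.9% and 46.7%, and TMM factors gave 37.7% and 46.4%. With the genes compared drawn anew under each scaling, their median moved from -0.26 to -0.0021 at D11 and from -0.22 to -0.011 at D14 with those genes left out, and to -0.18 and -0.0054 with TMM factors. Each list median named above kept its sign under both scalings.

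Along the share of Camp, Ngp and Ltf in a cell, the genes described here followed different courses. Neutrophils were placed in 5 bins, under 0.25%, 0.25% to 1%, 1% to 2%, 2% to 5% and 5% or more, with 1448, 54, 33, 43 and 31 cells at D11 and 723, 139, 53, 95 and 55 at D14. Cebpe was higher in every bin than in the one before it, from 15.5 CPM to 340 CPM at D11 and from 17.5 to 265 CPM at D14. Cybb did the same, from 161 to 2452 CPM and from 304 to 2404 CPM. Cxcr2 was lower at each step, from 1497 to 360 CPM and from 1458 to 385 CPM. Retnlg did neither: it had 5243 CPM in the lowest bin at D11, 21291 CPM at 1% to 2% and 6516 CPM in the highest, and 12818, 18279 and 6067 CPM at D14, with its peak of 21840 CPM at 0.25% to 1%. Chil3 was lower in the second bin than in the first and then higher at each step, from 19.6 through 5.08 to 1426 CPM at D11 and from 383 through 196 to 2549 CPM at D14. Mmp8 peaked in the middle, at 3086 CPM in the 1% to 2% bin of D11 and 3647 CPM in the 2% to 5% bin of D14. Zmpste24, a protease that processes lamin A, was concentrated at the upper end, at 13.5 CPM from 1% to 2% and 436 CPM at 5% or more in D11, and 21.6 and 313 CPM in D14. Bins are cut on genes of the same cells, so these courses are a description too.

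**Figure D3:**
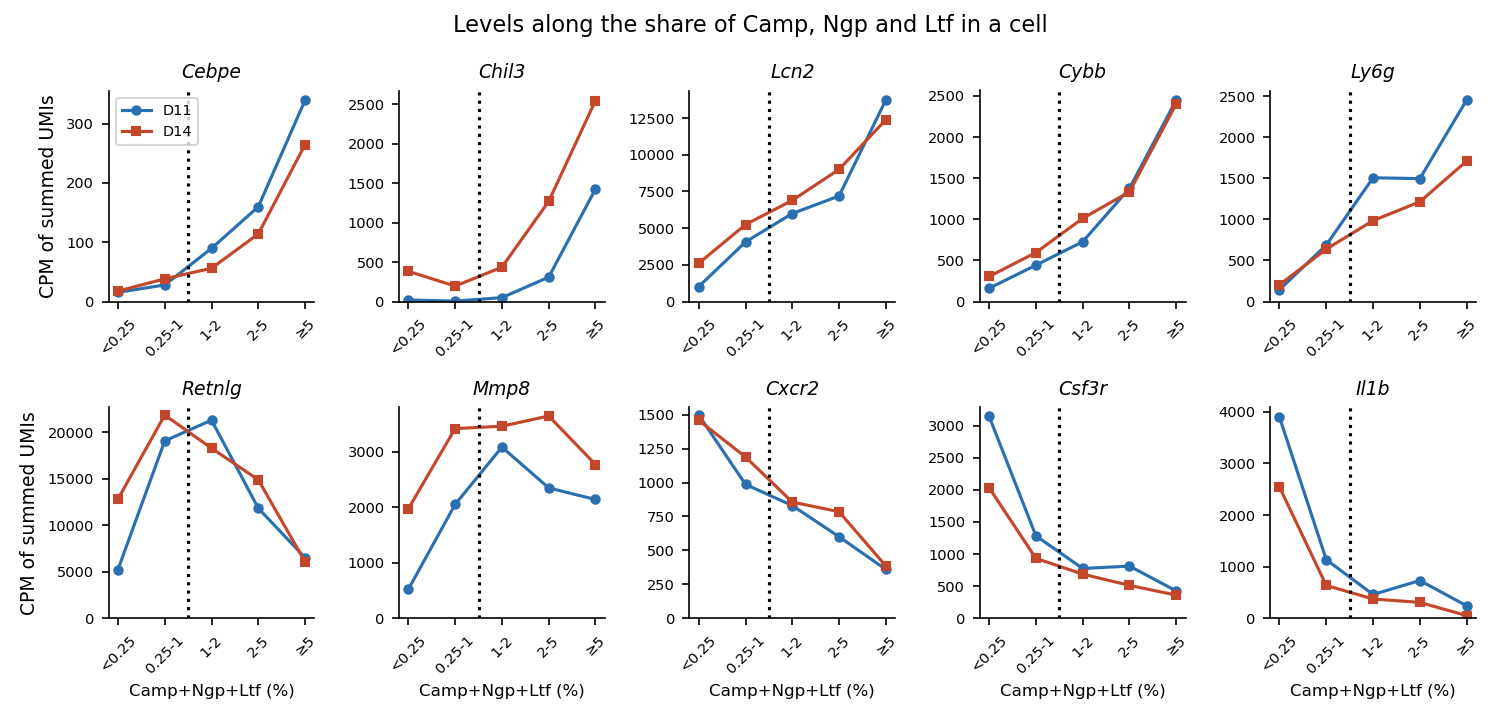
Levels (CPM of the UMIs summed in a bin, axes from 0, each with its own scale) of 10 genes against the share of a cell's UMIs from Camp, Ngp and Ltf, for D11 (circles) and D14 (squares); the dotted line is the 1% limit. Cebpe, Lcn2 and Cybb were higher in each bin than in the one before, Retnlg and Mmp8 peaked in the middle bins, and Cxcr2 was lower at each step.

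Between D11 and D14, most genes of immature neutrophils were within 2-fold. Of 2711 genes with at least 50 CPM in either gated sum, 2.66% were past 2-fold, 47 (1.73%) higher and 25 (0.922%) lower at D14. These counts became 121 and 76 without barcodes holding other cells' transcripts, and 55 were lower with the Camp, Ngp and Ltf limit at 2%, but 15 without the highest doublet scores and 16 with Cd3d not counted among those transcripts. In below-limit neutrophils of the same libraries 6.6% of 2970 genes were past 2-fold, 5.05% higher and 1.55% lower, from larger sums. The median absolute log2 ratio was 0.21 in the gate and 0.25 below the limit. Each comparison rests on a single library per day, and no replicate spread is known.

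Every gated cell was admitted for its secondary granule transcripts, so the choice of cells itself bears on how these genes compare between the days. The 13 besides the gate genes had a median log2 ratio of 0.24, beside 0.07 for all genes, with 10 higher and 3 lower and 1 past 2-fold, where 57.7% of all genes were higher. The 11 that could be compared below the limit were all higher, with a median of 1.27, where 50.9% of all genes were higher. Lcn2 had a ratio of 0.10 [0.06 to 0.14] in the gate and 1.39 below it, and Mmp8 one of 0.44 [0.37 to 0.51] and 1.88. Chil3 was the gene past 2-fold, at 590 CPM at D11 and 1466 CPM at D14 (1.31 [1.18 to 1.44]), with UMIs in 29.8% [21.2 to 39.6] of D11 and 57.1% [50.03 to 64.05] of D14 gated cells after thinning to 1000 UMIs. B cell barcodes, which should lack it, had Chil3 in 0 of 318 and 0 of 732 after the same thinning, which allows up to 0.943% and 0.410% at that depth. Unthinned, 0.314% and 3.14% of B cell barcodes had it, beside 56.1% and 90.1% of gated cells. The 13 naive cells stood at 623 CPM, close to D11. Lyz2, lysozyme, was lower at D14, at 10139 and 7242 CPM, as was Camp.

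The genes highest at D14 over D11 were led by stefins, cystatin-type protease inhibitors of mouse neutrophils. Stfa2 had 703 CPM in the naive, 105 CPM in the D11 and 502 CPM in the D14 gate, Stfa3 809, 98.4 and 392 CPM, and Stfa2l1 2254, 156 and 574 CPM. The naive cells thus had the highest level of all 3, and D11 the lowest. These genes are near-identical copies, reads may be split among them, and they were concentrated in few cells: Stfa2 had UMIs in 12.2% of D11 and 29.1% of D14 cells, and 1 cell held 41.2% of the D11 UMIs of Stfa3. Without the richest cell of each library the log2 ratios were 2.36 for Stfa2, 2.48 for Stfa3 and 2.18 for Stfa2l1. Il1r2, the decoy receptor for interleukin-1, had 202 and 528 CPM, with UMIs in 57.9% and 87.7% of cells. Arid5b, a chromatin factor, had 70.0 and 206 CPM and a smaller ratio below the limit, 0.39 against 1.56 in the gate. Also among the 12 were Asprv1, Nt5c3, Trak2, Wfdc17 and Ahnak, of whose D11 UMIs 58.5% were in 1 cell.

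Lower at D14 were Sntb1, a syntrophin, at 116 and 40.0 CPM (-1.53 [-1.98 to -1.10]), and Thbs1, thrombospondin-1, at 228 CPM in 52.3% of D11 cells and 104 CPM in 24.6% of D14 cells (-1.14 [-1.43 to -0.85]). Il1b was lower too, at 522 and 244 CPM, but it was higher at D14, by 0.96, without barcodes holding other cells' transcripts by the limits given above. Cd74, the invariant chain of MHC class II, had the largest ratio, -4.02, but 83.6% of its 140 D11 UMIs were in 1 cell; without the richest cell of each library it had 24.0 CPM at D11 and 2.23 CPM at D14, and its direction reversed to 1.95 without barcodes holding other cells' transcripts and to 0.53 with Cd3d not counted among these. The remaining 8 were Gm50022, Basp1, Mkrn1, Tmem243, Bri3, Isg15, Filip1l and Glipr1, of which 2 were past 2-fold. Within the bins from 1% to 2%, 2% to 5% and 5% or more, Isg15, Bri3, Wfdc17, Filip1l and Cd74 did not keep 1 sign, while the other 19 of the 24 did. Since the genes were picked for their ratio over these same cells, this is no support for them. In below-limit neutrophils Thbs1 (0.67) and Tmem243 (0.07) had the opposite sign, the latter turning to the same sign with TMM factors.

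**Figure D4:**
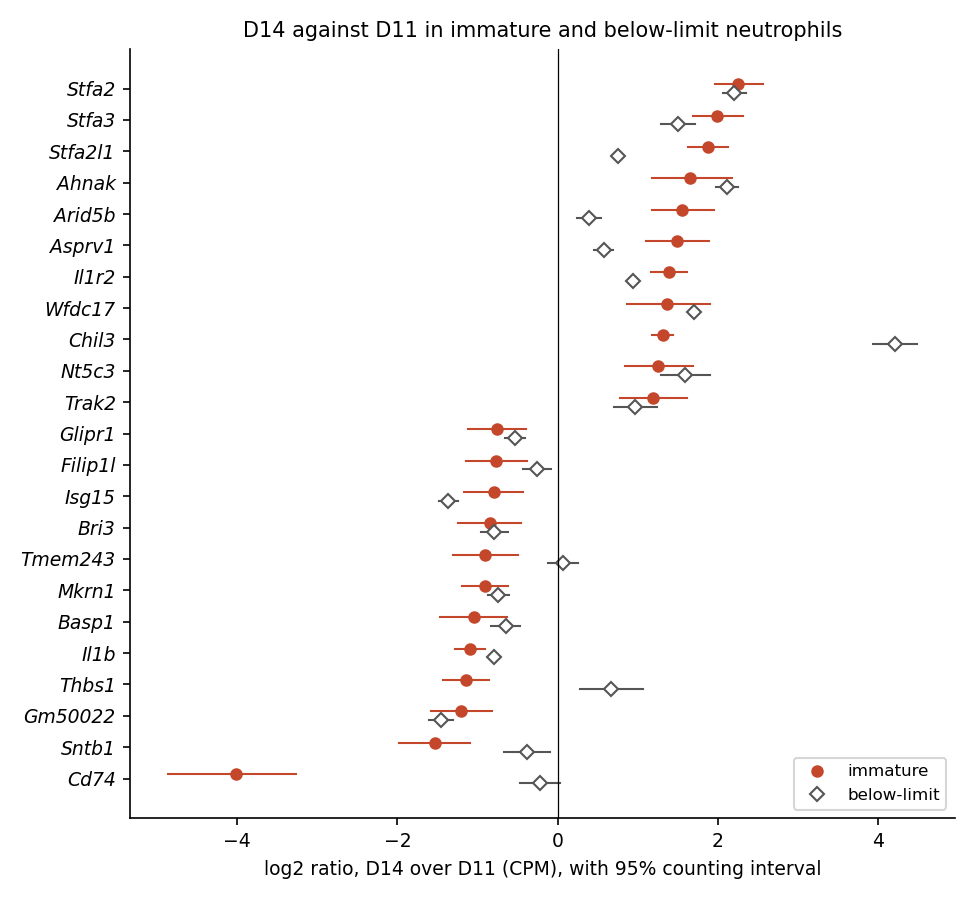
Log2 ratio of D14 over D11 with 95% counting intervals for 23 of the 24 named genes, in immature neutrophils (filled circles) and below-limit neutrophils (open diamonds). Stfa2, Stfa3 and Stfa2l1 have the highest values in the immature cells, Cd74 the lowest, and Thbs1 lies on opposite sides of 0.

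Heat shock genes were higher at D14 in 5 of 6 genes of the gate, with a median of 0.60, and in 6 of 7 below the limit, with a median of 0.67, where 57.7% and 50.9% of all genes were higher. The median share of mitochondrial UMIs was 0.467% at D11 and 0.955% at D14 in the gate, and 0.231% and 0.712% below the limit, and its part in the heat shock values was not tested. Hspa8, a constitutive chaperone, had 273 and 425 CPM in the gate. The inducible Hspa1a and Hspa1b, near-identical copies, had 7.1 and 3.04 CPM at D11 and 42.7 and 68.5 CPM at D14. Thinned to 1000 UMIs, 1.97% [0.539 to 4.97] of D14 gated cells had Hspa1a and 2.46% [0.804 to 5.65] Hspa1b, beside 1.23% [0.564 to 2.32] and 4.64% [3.24 to 6.43] of B cell barcodes in that library. The intervals overlap, and no expression is read from these shares. Tertiary granule genes were higher in 8 of 8, with a median of 0.32. NADPH oxidase genes were 3 higher and 3 lower, with a median of -0.01.

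Few cells of the gate passed a rule for cell cycle transcripts. A cell counted as cycling when, thinned to 1000 UMIs, it had at least 2 UMIs of 17 genes of G2 and M phase and at least 1 of 15 of S phase. This held for 1 of 13 naive cells, 0 of 104 D11 cells, which by a floor of 3 counts allows up to 2.88% of cells that pass this rule at this depth and by the exact interval up to 3.48%, and 1 of 203 D14 cells, or 0.493% [0.0125 to 2.71]. B cell barcodes measured the same way gave 0.563%, 13.8% and 30.9%, and below-limit neutrophils 0 of 1206, 1 of 1491 and 5 of 840. The B cell barcodes were not split into host and leukemia cells, and unthinned 87.6% of them passed at D14. Unthinned, 3 of 107 D11 cells, or 2.80% [0.582 to 7.98], and 13 of 203 D14 cells, or 6.40% [3.45 to 10.7], passed, and 78 and 130 cells had no UMI of the G2 and M phase list. That list summed to 809, 46.7 and 81.1 CPM in the naive, D11 and D14 gates and the S phase list to 385, 62.9 and 74.0 CPM. The 1 naive cell that passed had 119 UMIs of the G2 and M phase list. Below the limit 13 of 1502 and 41 of 862 passed unthinned at D11 and D14, from shallower cells.

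Transcripts of other cells were measured in the same sums. Of 6 red cell markers, all were found in the D11 and D14 gates, with 126, 36787 and 6215 CPM in naive, D11 and D14 and 18453 CPM of Hbb-bs at D11. Over 92% of these UMIs were in the richest 10% of the cells, 96.5% at D11 and 92.3% at D14, and 11 and 5 cells had more than 1% hemoglobin UMIs. Of 6 T cell markers, Cd3d alone made up nearly all, at 391, 398 and 250 CPM, whereas Trac was at 0 in all 3 gates and Cd3e at 0 in the naive and D11 gates. Of 6 classical monocyte markers, Ly6c2 had 272, 557 and 425 CPM, while the list summed to 272, 582 and 451 CPM and Vcan was at 0 in the naive and D11 gates. B cell markers summed to 0, 113 and 18.1 CPM with 99.1% of the D11 UMIs in the richest 10% of cells, and early B markers of the leukemia to 19.9, 49.7 and 61.9 CPM, mostly Ebf1. Eosinophil markers came to 66.3, 38.5 and 40.5 CPM, nearly all Ear2, and non-classical monocyte markers to 106, 148 and 173 CPM. NK, basophil, platelet and progenitor lists reached at most 11.2 CPM in the gates. Below the limit, red cell markers summed to 13218, 76559 and 27447 CPM and early B markers to 32.2, 86.7 and 312 CPM. Classical monocyte markers summed there to 178, 233 and 613 CPM, with 167 CPM of Ly6c2 at D14 and 91.3% of the D14 UMIs in the richest 10% of cells. T cell markers were lower than in the gates, at 136, 167 and 131 CPM. The comparison cells thus also held transcripts of other cells. The part of all these transcripts in the ratios was not tested, apart from the values without barcodes holding other cells' transcripts. In B cell barcodes thinned to 1000 UMIs, Camp, Ngp and Ltf were each in at most 1.09% of barcodes at D11 and D14. Unthinned, they were in 2.52%, 3.46% and 1.26% at D11. At D14, where the median was 32141 UMIs, they were in 9.41%, 18.6% and 7.91%. Gated cells were admitted for these 3 genes, so their own share is not set beside that value. Between pairs of libraries 12, 14 and 18 barcodes were shared, and 0 were in the gate of both.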

How the data were processed

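Peripheral blood leukocytes of 3 conditions were profiled in 3 libraries, 1 each. The deposited matrices hold UMI counts per gene and barcode, made by the authors with Cell Ranger on mm10; the file headers name version 5.0.1 and the submitters' processing notes 7.1.0. Of 32285 features, 32235 matched GENCODE vM21, and 38 symbols naming more than 1 identifier were left out. UMIs were summed over the cells of each library and scaled to CPM. A gene was compared when 1 side had at least 50 CPM, and list medians use log2 with 1 CPM added. With 1 library per condition no test was run, and 2-fold served as the limit for counts of genes.

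The members, gene lists and comparisons were chosen with earlier results of these data known. Named genes were the 12 with the largest log2 ratio in each direction among genes with at least 100 CPM, for the gate over below-limit cells (the smaller of the D11 and D14 ratios) and for D14 over D11 in the gate, without hemoglobin, ribosomal protein, mitochondrial, immunoglobulin and, in the first contrast, gate genes; Mmp8 was added from the title of the series. Other genes named are members of the lists. Values of a few members of these sets are not reported here, though the counts and medians include them. Thinning drew each cell once to 1000 UMIs. The highest Scrublet scores (116, 167 and 156 barcodes, 0, 8 and 9 in the gate) were removed as an alternative; doublets were otherwise kept. On simulated counts, 200 of 200 genes set 4-fold apart were past 2-fold in the right direction and 0 of 2337 unchanged ones for D14 against D11 in the gate, and 95.7% of 2537 intervals covered the true ratio. The simulated sums were Poisson counts, the model the intervals assume. They held no clustering of UMIs in single cells and no spread between mice. The simulation therefore checks the calculation only and does not show how often such calls or intervals hold in these libraries. Python 3.11.15, numpy 2.4.6, scipy 1.17.1, pandas 2.3.3, scanpy 1.11.5, matplotlib 3.10.9, R 4.3.3 and edgeR 4.0.16 (TMM factors only) were used.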

Additional observations from a re-analysis of the deposited data

Results flagged for a closer look

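Cd74 lay on opposite sides of even in the gate against below-limit neutrophils, with a log2 ratio (1 CPM added) of 1.37 at D11 and -2.29 at D14. Of its D11 UMIs in the gate 83.6% came from 1 cell. Thbs1 was lower at D14 than at D11 in the gate, at -1.13, and higher in below-limit neutrophils, at 0.64. Neither difference was tested, since each condition is 1 library. Among barcodes left out for few genes or high mitochondrial content, 4 at D11 and 13 at D14 met both limits of the gate, beside 1 in the naive library.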

How the results depend on the processing

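No paired analysis was possible because each condition has 1 library, and no replicate could be left out. Of 126 values for shares, cycling cells and counts of genes past 2-fold under the alternatives, 96 stayed close and 30 moved. A reversal was not defined for these values, which have no sign. Of 1563 for named genes and lists, 1492 stayed close, 66 moved and 5 reversed. A Camp, Ngp and Ltf limit of 0.5% gave 25.4% immature neutrophils at D14, and a limit of 2% gave 4.60% at D11 and 14.1% at D14, with 55 genes lower at D14 in place of 25. Over all kept barcodes the shares were 0.341%, 2.34% and 4.60% with a D14 to D11 ratio of 1.96, and over those with at most 1% hemoglobin 0.352%, 3.29% and 6.28% with a ratio of 1.91. A minimum of 20 CPM gave 1140 (D11) and 862 (D14) genes past 2-fold against below-limit cells, in place of 711 and 485, and 93 higher and 92 lower at D14, in place of 47 and 25; a minimum of 200 CPM gave 284, 176, 13 and 6. Without hemoglobin, ribosomal, mitochondrial and gate genes in the total, 39 were lower at D14, and without the highest doublet scores 15. Unthinned, 6.40% of D14 cells counted as cycling.

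Barcodes with more than 1% hemoglobin UMIs, or 3 or more UMIs of B cell, early B, T cell and NK markers, were left out as an alternative. Monocyte markers were not used for it. This kept 6, 39 and 103 cells of the gate, Cd3d being the main reason. The shares were then 0.533%, 3.12% and 14.0%, the ratio 4.50, and 121 genes were higher and 76 lower at D14. Il1b reversed to 0.96, Cd74 to 1.95 and the median of the growth factor receptors from -0.24 to 0.043, the last also without the highest doublet scores, to 0.016. With Cd3d not counted, an alternative chosen after seeing the data, 13, 93 and 185 cells were kept, 16 genes were lower at D14 and Cd74 reversed to 0.53. The causes were not tested. Depth limits the naive gate most, with 150831 UMIs in 13 cells.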
